A study of Mus musculus with 4 samples.

Results

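Matrix metalloproteinases (MMPs) and their inhibitors were examined in cultured hair follicle mesenchyme. The members were the 10 genes Mmp2, Mmp3, Mmp10, Mmp11, Mmp13, Mmp14, Mmp19, Timp1, Timp2 and Timp3, found by their symbol among the 51826 rows of the gene count table. Each symbol matched 1 row, and all 10 members were among the 16734 genes kept for comparison, which averaged 10 or more raw counts. The members were chosen by a list of symbols drawn up with the fold changes between these same 4 libraries known, so that their values are a description and carry no test. The cells were dermal papilla cells (DPCs), the mesenchyme inside the hair bulb, and dermal sheath cells (DSCs), the mesenchyme around the follicle. Per the study's methods, both were cultured from vibrissa (whisker) follicles of EGFP-transgenic C57BL/6J mice aged 5 to 6 weeks, while the labels give the genotype as WT. Both cell types were grown in DMEM and collected at passage 3 (low passage) and at passage 9 (high passage), with no other treatment. RNA of each of the 4 groups was sequenced as 1 library. No source gives the number of mice or cultures behind a library, and cell passage cannot be told apart from time in culture or from the day a library was made.

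MMPs are zinc endopeptidases that cut collagens, proteoglycans and other proteins of the extracellular matrix, and they also release growth factors held there. Most are secreted as inactive zymogens whose propeptide must be cut off, while the membrane-type enzymes work at the cell surface. Tissue inhibitors of metalloproteinases (TIMPs) block the active site. In skin, dermal fibroblasts and follicle mesenchyme make many of these proteins, and turnover of the matrix accompanies the growth and regression of the hair follicle.

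The 4 libraries held between 34981284 and 47604059 counts. With 1 library a group there is no replicate error, and every interval printed here is the exact Clopper-Pearson interval at 95%, which covers counting error only and compares 2 libraries, not 2 conditions. The labels of the cells were checked against marker genes. Of the 8 fibroblast genes, all but Lum had 3292 counts or more in every library, with Vim between 51683 and 75941. Lum was detected only in low-passage DPCs (8 counts) and high-passage DSCs (109). At passage 9, 3 of the 8 were at least 4-fold lower in DPCs and 0 higher. These were Col1a1 (6.1-fold), Col3a1 (8.21-fold) and Lum. In DSCs 2 were at least 4-fold higher, Dcn and Lum, and 0 lower. The papilla markers were uneven. Sox2 had 1677 and then 1491 counts in DPCs against 269 and then 178 in DSCs, where the earlier passage is given first. Lef1 went from 508 to 2 counts in DPCs and stood at 101 and then 55 in DSCs, and Wif1 had 0 in every library. Crabp1 was 15.3-fold higher in DPCs at passage 3 and 1.12-fold lower at passage 9. Alpl had 8 and then 10 counts in DPCs and 23 and then 6 in DSCs. Fgf7 was lower in DPCs at both passages, by 1.48-fold and 2.24-fold. Over the 9 papilla markers tested of 12, the median log2 difference, DPCs over DSCs, was 0.28 at passage 3 and -0.16 at passage 9. Acta2, a marker of the sheath, did not mark out DSCs at passage 3, with 262118 counts in low-passage DPCs and 217199 in low-passage DSCs. At passage 9 it had 67135 counts in DPCs and 197315 in DSCs, 2.35-fold higher in DSCs. Of the other sheath markers, Itga8 was higher in DPCs at both passages, by 4.22-fold and 1.86-fold. Myh11 and Tagln were higher in DPCs at passage 3 and in DSCs at passage 9. Col11a1 was lower in DPCs at both passages, and Abi3bp 17.2-fold lower at passage 3 and near level at passage 9 (1.05-fold). The median log2 difference of the 6 sheath markers, DPCs over DSCs, was 0.29 at passage 3 and -1.25 at passage 9.

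Only 1 of the 10 members, Mmp3, passed the 4-fold rule with passage, and it did so upward in DPCs and in DSCs. Mmp3 moved from the middle of the expressed genes to the upper end, while the abundant enzymes Mmp2 and Mmp14 stayed within 1.53-fold of their low-passage level. Among the inhibitors, Timp1 was lower and Timp2 higher at high passage in both cell types. Of all genes tested, 9.93% passed 4-fold in either direction in DPCs and 3.84% in DSCs. Counted upward alone the shares were 5.36% in DPCs, 2.67% in DSCs and 1.24% in both cell types, and downward, where there was no member, they were 4.57%, 1.17% and 0.526%. Since the list was drawn up with these contrasts known, nothing is read from the counts. The median change over the 10 members was -0.05 in DPCs and 0.12 in DSCs on the log2 scale, against -0.002 and -0.003 over all genes tested.

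The start regions of the genes divide the members in the same way as their position does, and they are shown here because the most changed gene, Mmp3, belongs to the smaller class. Mmp13, Mmp3 and Mmp10 lie in a cluster of MMP genes on chromosome 9, and the other members are spread over other chromosomes. RefSeq windows of 250 bases before the transcript start (build GRCm38.p6) were found for 8 of the 10 members, all but Mmp2 and Mmp19. In the windows printed below from 5′ to 3′ on the strand of the gene, capitals mark 3 short motifs. These are the AP-1 motif (TGAGTCA or, on the other strand, TGACTCA), the TATA motif (TATAAA, searched on the strand of the gene alone) and the GC box (GGGCGG or, on the other strand, CCGCCC). Timp1 is shown as the inhibitor with the largest change.
Mmp3, chr9:7445572-7445821, plus strand: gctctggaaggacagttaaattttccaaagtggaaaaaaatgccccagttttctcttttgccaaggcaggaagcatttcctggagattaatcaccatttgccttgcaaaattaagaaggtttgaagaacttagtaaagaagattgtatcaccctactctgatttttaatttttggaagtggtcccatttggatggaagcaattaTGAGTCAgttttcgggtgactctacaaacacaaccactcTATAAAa
Mmp10, chr9:7502092-7502341, plus strand: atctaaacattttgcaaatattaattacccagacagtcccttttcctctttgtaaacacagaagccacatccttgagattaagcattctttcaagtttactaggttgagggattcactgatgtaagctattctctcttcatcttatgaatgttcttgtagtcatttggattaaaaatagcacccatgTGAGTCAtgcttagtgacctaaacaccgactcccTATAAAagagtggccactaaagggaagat
Mmp13, chr9:7272264-7272513, plus strand: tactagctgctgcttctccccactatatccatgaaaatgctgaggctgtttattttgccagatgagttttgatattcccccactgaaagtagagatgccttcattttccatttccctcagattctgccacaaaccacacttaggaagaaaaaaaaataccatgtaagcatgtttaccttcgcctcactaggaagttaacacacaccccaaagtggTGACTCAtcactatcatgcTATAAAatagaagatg
Timp1, chrX:20869916-20870165, plus strand: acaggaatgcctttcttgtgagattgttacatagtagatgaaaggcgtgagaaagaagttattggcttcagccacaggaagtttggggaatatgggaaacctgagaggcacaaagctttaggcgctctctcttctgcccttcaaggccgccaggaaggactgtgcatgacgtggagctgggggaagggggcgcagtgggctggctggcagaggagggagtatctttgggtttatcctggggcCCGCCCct

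The 3 members of the cluster each held 1 AP-1 motif and 1 TATA motif. The AP-1 motif began 46 bases before the start of Mmp3, 63 before that of Mmp10 and 35 before that of Mmp13. The TATA motif began 7, 29 and 16 bases before the start in the same order. The windows of Mmp11, Mmp14, Timp1, Timp2 and Timp3 held neither motif and held 1 or 2 GC boxes each, which the 3 cluster genes lacked. Among 32851 RefSeq windows of the same length, 4.46% held the AP-1 motif, 7.59% the TATA motif, 0.481% both and 32.7% a GC box. The G and C content was 37.2% to 40.4% in the 3 cluster genes and 54.4% to 68.0% in the other 5, against a median of 52.4% over all windows. The 3 cluster genes are neighbors of the same family, so that their matches are not independent of each other. A motif match is a description of letters in this window and not a site shown to be bound. The part of these motifs in any passage change was not tested.

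Mmp3 (ENSMUSG00000043613, chromosome 9, 7445822 to 7455975, plus strand) encodes stromelysin-1, which cuts proteoglycans, fibronectin and laminin and can activate other MMP zymogens. DPCs held 146 counts at passage 3 and 6252 at passage 9, and DSCs held 63 and 1793. Both high-passage libraries lay far above both low-passage libraries. The level per transcript length went from 2.03 to 88.8 FPKM in DPCs and from 0.796 to 18.6 FPKM in DSCs. This was a log2 change of 5.40 (5.18 to 5.67) in DPCs, or 42.3-fold, and of 4.52 (4.20 to 4.95) in DSCs, or 22.9-fold. In rank, Mmp3 went from percentile 50.1 to 97.3 of the genes above 0 FPKM in DPCs, and in DSCs from 41.8 to 85.3. At both passages it was higher in DPCs, by a log2 difference of 1.24 (0.83 to 1.71) at passage 3 and of 2.12 (2.05 to 2.20) at passage 9. The study named Mmp3 from these libraries, so that its values here are not independent evidence.

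Mmp10 (ENSMUSG00000047562, chromosome 9, 7502352 to 7510240, plus strand), which encodes the closely related stromelysin-2, did not move with its neighbor. DPCs held 168 counts at passage 3 and 94 at passage 9, and DSCs held 131 and 231, all between 1.39 and 2.51 FPKM. The change was -0.83 (-1.22 to -0.46) in DPCs and 0.54 (0.23 to 0.87) in DSCs, so that the lowest and the highest of the 4 levels were those of the high-passage libraries. Of the 1673 windows of 50 bases in the Mmp10 transcript, 140 (8.37%) also occur in Mmp3. A read pair lying wholly within such shared stretches could come from either gene, and how such reads were counted is not known. The 8.39% of Mmp3 windows that are shared leave most of its transcript unique. For Mmp10 the limit is greater, because Mmp3 went from 63 to 1793 counts in the same DSC libraries. The part of reads from Mmp3 in the Mmp10 counts and in their change was not tested.

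Mmp13 (ENSMUSG00000050578, chromosome 9, 7272514 to 7283331, plus strand), the interstitial collagenase of rodents, separated the cell types rather than the passages. DPCs held 33 counts at passage 3 and 26 at passage 9, and DSCs held 192 and 420. All counts in DPCs lay below those in DSCs. DPCs were lower by 5.37-fold at passage 3, a log2 difference of -2.43 (-3.07 to -1.95), and by 12.1-fold at passage 9, a difference of -3.60 (-4.32 to -3.12). With passage it changed by 0.85 (0.61 to 1.11) in DSCs, and in DPCs the change of -0.32 had an interval that includes 0 (-1.14 to 0.44). Its level lay between 0.24 and 2.93 FPKM, and in both DPC libraries it was the lowest of the members. Osteoblasts and hypertrophic chondrocytes are known for making Mmp13. The summed level of 7 osteoblast and chondrocyte markers was 81.8 CPM (counts per scaled 1e6 counts) in DPCs at passage 3 and 8.78 at passage 9, and 81.7 and 232 in DSCs. At passage 3, Col10a1 made up 78.5 CPM of the sum in DPCs and 40.4 CPM in DSCs. Of the 5 markers tested, 3 were at least 4-fold lower in DPCs than in DSCs at passage 3 and 0 higher. These were Acan (-3.52), Col2a1 (-6.73) and Sp7 (-2.99). The shares of all genes tested were 2.74% lower and 1.53% higher. At passage 9, 1 was lower in DPCs, Col10a1 (-4.92), and 0 higher, against 4.0% and 2.42%. The higher sum in high-passage DSCs was Col10a1 alone, which went from 40.4 to 230 CPM, while Acan (-4.27), Col2a1 (-5.84) and Sp7 (-2.09) were more than 4-fold lower there. With passage in DSCs, 1 of the 5 tested was at least 4-fold higher and 3 were lower, against 2.67% and 1.17% of all genes. Their median log2 change was -2.09, and Ibsp had 0 counts in every library. The part of such cells in the Mmp13 levels was not tested.

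**Figure D1:**
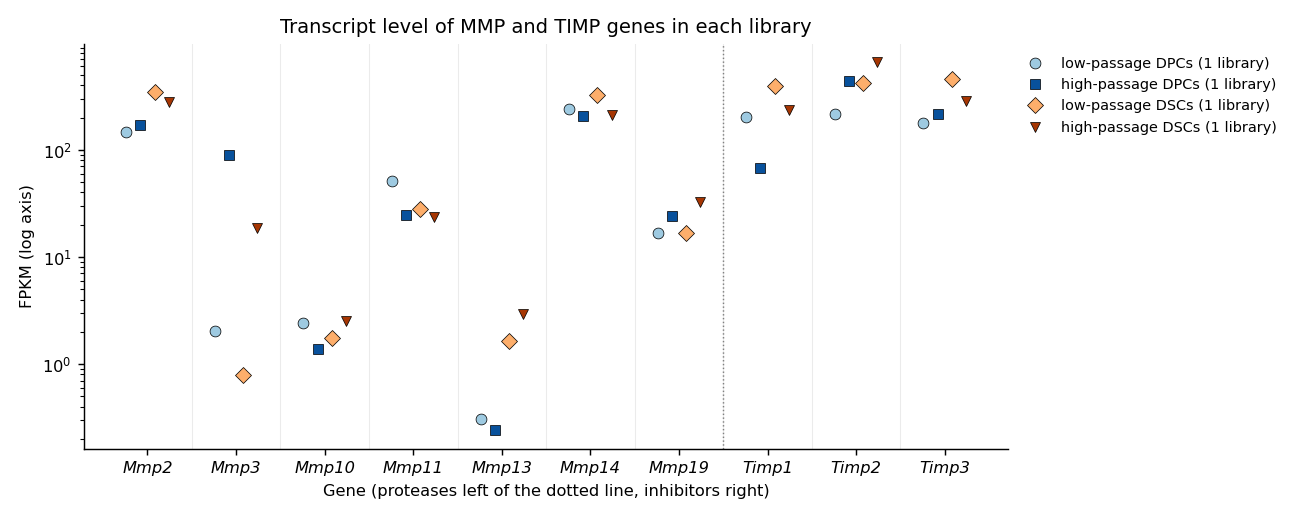
The plot of transcript level by gene shows FPKM on a log axis for each of the 10 members, with 1 symbol for each of the 4 libraries and no error bar because each group is 1 library. Mmp3 spans 0.796 to 88.8 FPKM with both high-passage libraries on top, whereas Mmp2, Mmp14 and the 3 inhibitors stay at or above 67.3 FPKM in every library.

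The 2 most abundant proteases changed little with passage. Mmp2 (ENSMUSG00000031740, chromosome 8, 92827291 to 92853420, plus strand) encodes gelatinase A, a secreted enzyme that degrades denatured collagen and type IV collagen. It went from 17661 to 20490 counts in the DPC libraries and from 46368 to 45377 in the DSC libraries. The passage change was 0.21 (0.19 to 0.24) in DPCs and -0.30 (-0.32 to -0.28) in DSCs. The DSC libraries were higher than the DPC libraries, by 2.54-fold at passage 3 and 1.77-fold at passage 9.

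Mmp14 (ENSMUSG00000000957, chromosome 14, 54431612 to 54441265, plus strand) encodes the membrane-bound collagenase MT1-MMP, which activates the Mmp2 zymogen at the cell surface in a complex with TIMP2. It went from 24569 to 19883 counts in the DPC libraries and from 36371 to 28690 in the DSC libraries. The high-passage library was the lower of each pair, with changes of -0.31 (-0.33 to -0.28) and -0.61 (-0.64 to -0.59). In low-passage DPCs it was the most abundant member at 242 FPKM, and in high-passage DPCs it stood at 207 FPKM.

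Mmp11 (ENSMUSG00000000901, chromosome 10, 75923222 to 75936496, minus strand), the furin-activated stromelysin-3 typical of stromal cells, went from 3608 to 1583 counts in the DPC libraries and from 2324 to 2128 in the DSC libraries. Low-passage DPCs stood above the other libraries, which lay near each other. The change was -1.19 (-1.27 to -1.10) in DPCs, 2.28-fold lower, and -0.40 (-0.48 to -0.31) in DSCs. Mmp11 shares 155 exonic bases with Chchd10 on the opposite strand, and Chchd10 fell from 1207 counts to 99 across the DPC libraries and from 441 to 170 across the DSC libraries. Whether reads were counted by strand is not stated, and the part of this overlap in the Mmp11 change was not tested. The counts and the FPKM of Mmp11 imply a transcript length of 1827 to 2142 bases in different libraries, the widest spread of all members.

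Mmp19 (ENSMUSG00000025355, chromosome 10, 128790910 to 128800824, plus strand), a secreted protease that cuts components of the basement membrane, went from 2233 to 2830 counts in the DPC libraries and from 2145 to 5462 in the DSC libraries. High-passage DSCs were above the other 3 libraries. The change was 0.34 (0.26 to 0.42) in DPCs and 1.08 (1.00 to 1.15) in DSCs, the latter 2.11-fold. Of its exonic bases, 22.3% lie under Tmem198b on the opposite strand, which had between 968 and 1408 counts in a library.

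The inhibitors were among the abundant transcripts of every library, between percentile 96.2 and 99.7 of the genes detected. Timp1 (ENSMUSG00000001131, chromosome X, 20870166 to 20874735, plus strand), a soluble inhibitor of most secreted MMPs, had 6916 counts at passage 3 and 2262 at passage 9 in DPCs, against 14873 and 10711 in DSCs. Both DPC libraries lay below both DSC libraries, and high passage below low passage within each cell type. The change with passage was -1.61 (-1.68 to -1.54) in DPCs, 3.06-fold lower, and -0.75 (-0.78 to -0.71) in DSCs, 1.68-fold lower. The gene lies within Syn1 on the opposite strand and shares none of its exonic bases with it.

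Timp2 (ENSMUSG00000017466, chromosome 11, 118301069 to 118355740, minus strand), the inhibitor that also tethers the Mmp2 zymogen to MT1-MMP, went the other way. It went from 31964 to 64161 counts in the DPC libraries and from 68171 to 130218 in the DSC libraries. High passage was above low passage in each cell type, by 1.01 (0.99 to 1.02) in DPCs, or 2.01-fold, and by 0.66 (0.65 to 0.68) in DSCs, or 1.58-fold. At high passage it was the most abundant member in both cell types, at 441 FPKM in DPCs and 655 FPKM in DSCs.

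Timp3 (ENSMUSG00000020044, chromosome 10, 86300372 to 86349506, plus strand), the inhibitor that binds to the matrix itself, went from 33707 to 39569 counts in the DPC libraries and from 94456 to 71828 in the DSC libraries. Its change was 0.23 (0.21 to 0.25) in DPCs and -0.67 (-0.68 to -0.65) in DSCs. Of its exonic bases, 21.3% lie under Syn3 on the opposite strand, which had at most 65 counts in a library.

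**Figure D2:**
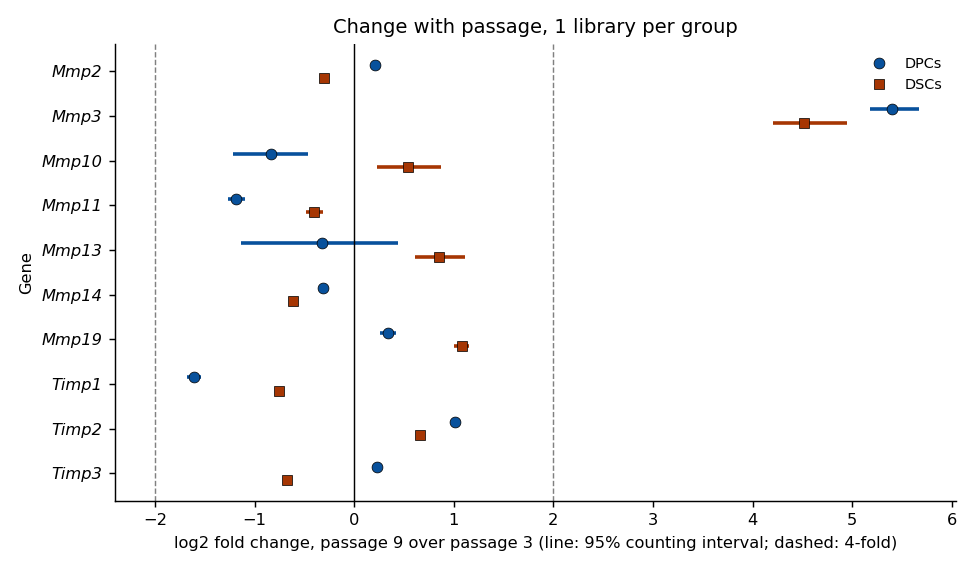
The plot of passage changes gives the log2 fold change of passage 9 over passage 3 for each member in DPCs (circles) and DSCs (squares), with lines for the 95% counting interval, which is narrower than the symbol for abundant genes, and dashed lines at 4-fold. Mmp3 lies beyond the upper dashed line at 5.40 and 4.52, and the other members lie between -1.61 and 1.08.

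Counting intervals were narrow for most genes at this depth and do not set the members apart. In DPCs the interval of the passage change excluded 0 for 9 of the 10 members and for 77.3% of all genes tested, and in DSCs for 10 of the 10 and for 66.8%. Counts of 4 were more frequent than counts of 3 in each library (754 against 583 genes in low-passage DPCs), a pattern that counting both mates of a read pair would give. With halved counts the number stayed at 9 and 10. Between cell types the interval excluded 0 for all 10 members at each passage, against 59.6% of all genes at passage 3 and 70.8% at passage 9, and with halved counts for 8 (all but Mmp10 and Mmp19) and 9 (all but Mmp11).

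The relation of the cell types to each other was examined next within each passage. At passage 3, 1 of the 10 members passed the 4-fold rule between cell types, Mmp13, lower in DPCs, and of all genes tested 1.53% passed upward and 2.74% downward, 4.27% together. At passage 9 there were 2, Mmp3 higher in DPCs and Mmp13 lower, against 2.42% of all genes upward and 4.0% downward, 6.42% together. The 3 inhibitors were lower in DPCs at both passages. At passage 3 the differences were -1.05 (-1.10 to -1.01) for Timp1, -1.04 (-1.06 to -1.02) for Timp2 and -1.44 (-1.45 to -1.42) for Timp3, and at passage 9 they were -1.92, -0.70 and -0.54. The median difference over all genes was 0.009 at passage 3 and -0.037 at passage 9.

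**Figure D3:**
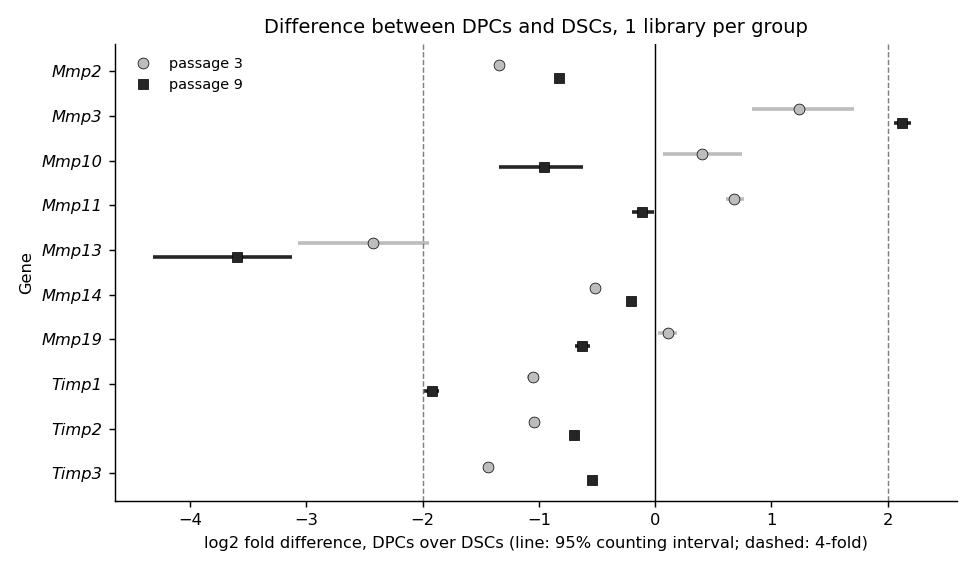
The plot of cell type differences gives the log2 fold difference of DPCs over DSCs for each member at passage 3 (grey circles) and passage 9 (black squares), with the 95% counting interval as a line and dashed lines at 4-fold. The 3 inhibitors, Mmp2, Mmp13 and Mmp14 lie left of 0 at both passages, and Mmp3 lies right of 0 at 1.24 and 2.12.

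Levels per transcript length allow the proteases to be set against the inhibitors. The summed level of the 7 MMP members was 460 FPKM at passage 3 and 518 FPKM at passage 9 in DPCs, against 724 and 571 FPKM in DSCs. The 3 TIMP members summed to 597, 723, 1280 and 1180 FPKM in the same order, above the proteases in each library. The ratio of MMP to TIMP was 0.771 at passage 3 and 0.716 at passage 9 in DPCs, against 0.567 and 0.486 in DSCs. The sums hid a shift in their makeup. Mmp3 was 0.441% of the MMP sum in low-passage DPCs and 17.1% in high-passage DPCs, and it went from 0.11% to 3.26% in DSCs. Of the TIMP sum, Timp1 went from 33.8% to 9.3% in DPCs and from 31.1% to 19.9% in DSCs, while Timp2 went from 36.2% to 61.1% and from 33.0% to 55.8%. Whether the ratio was higher or lower at high passage depended on which genes were summed. Without Mmp14 and Timp2, the members of each kind with the highest FPKM averaged over the libraries, the ratio was 0.574 at low passage and 1.11 at high passage in DPCs, and 0.466 and 0.693 in DSCs. A ratio of transcripts does not give the ratio of active enzyme to inhibitor.

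**Figure D4:**
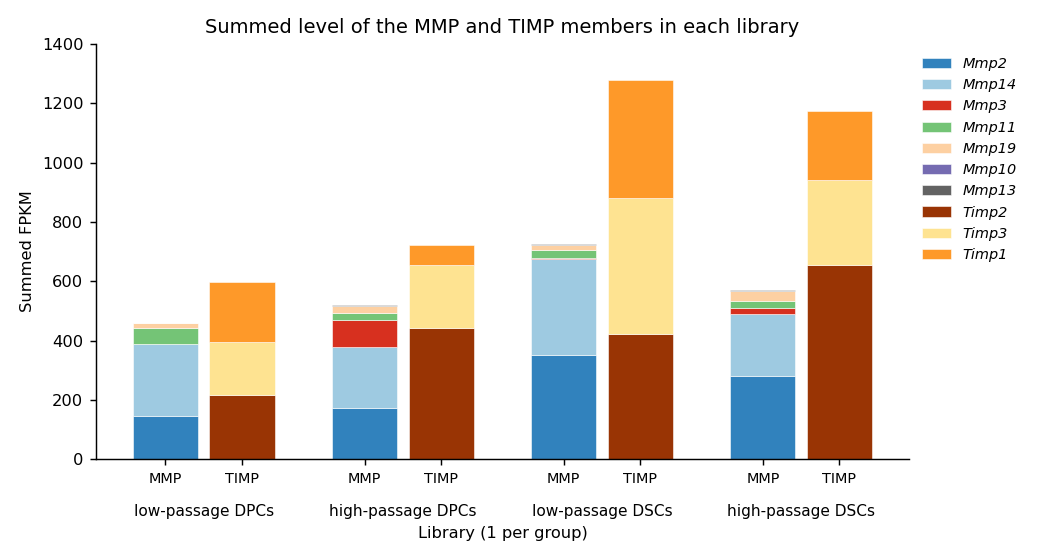
The bar plot stacks the FPKM of the 7 MMP members and of the 3 TIMP members in each of the 4 libraries, from 0. The TIMP bar is the taller in every library, Mmp3 (red) forms a band in the high-passage libraries, 88.8 FPKM in DPCs and 18.6 FPKM in DSCs, and the Timp2 band widens from 216 to 441 FPKM in DPCs and from 421 to 655 FPKM in DSCs.

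The chromosome 9 cluster gives the surroundings of Mmp3. It holds 10 MMP genes within 427 kb, in the order Mmp13, Mmp12, Mmp1b, Mmp3, Mmp1a, Mmp10, Mmp8, Mmp27, Mmp20 and Mmp7. Of these, 5 had at most 3 counts in every library, and 4 (Mmp1a, Mmp8, Mmp20 and Mmp7) had 0 in all of them, which allows up to 3 counts or 0.0823 CPM. Between Mmp13 and Mmp3 lies Mmp12, the macrophage elastase, with 153 and then 238 counts in DPCs and 88 and then 265 in DSCs. Its change was 0.63 (0.34 to 0.94) in DPCs and 1.30 (0.97 to 1.68) in DSCs, and its end overlaps that of Mmp1b on the other strand. No gene of the cluster other than Mmp3 passed the 4-fold rule with passage in a cell type where it was tested.

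**Figure D5:**
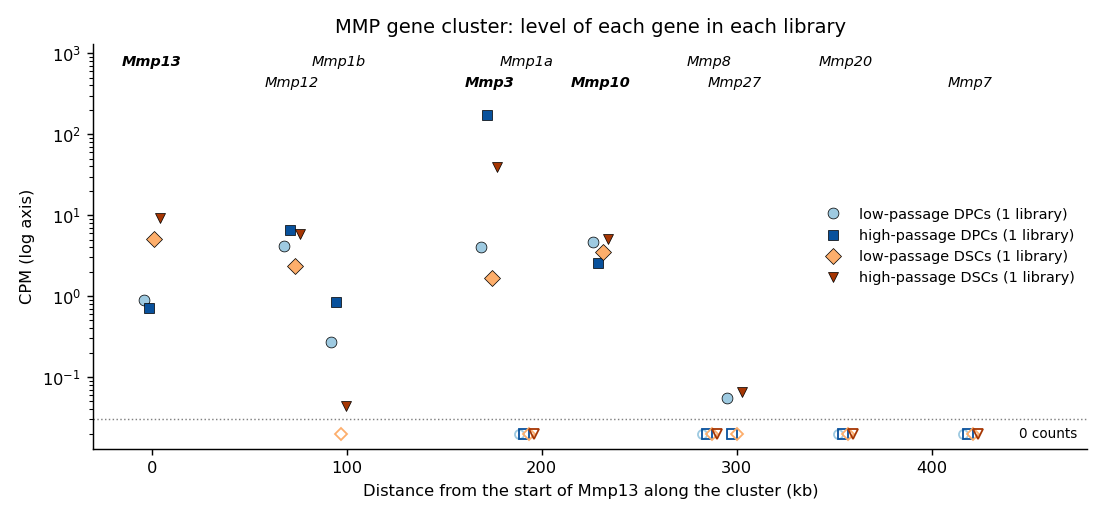
The plot of the MMP cluster gives counts per scaled 1e6 counts (CPM) on a log axis against the distance of each gene's start from that of Mmp13 in kb, with 1 symbol for each library and open symbols under the dotted line for 0 counts. Mmp3, 173 kb from Mmp13, stands at 172 and 39.4 CPM in the high-passage libraries and at 4.01 and 1.67 CPM in the low-passage ones.

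Other MMP genes and inhibitors were followed as a list of 18, of which 10 were tested. In DPCs 2 were at least 4-fold lower at high passage and 0 higher, against 4.57% and 5.36% of all genes tested. For DSCs there were 0 in either direction, against 1.17% lower and 2.67% higher. The median of the list was 0.00 in DPCs and 0.65 in DSCs. The lower genes were Mmp9 and Mmp23. Mmp9, the gelatinase B made by leukocytes among other cells, went from 114 to 4 counts in the DPC libraries and from 19 to 8 in the DSC libraries. The log2 change was -4.30 (-6.73 to -3.44) for DPCs and -1.29 (-2.92 to -0.26) for DSCs. Mmp23, a membrane-anchored protease and the first of this list by mean FPKM, though below Reck in high-passage DPCs, went from 1578 to 240 counts in the DPC libraries and from 3711 to 4290 in the DSC libraries, changes of -2.71 (-2.92 to -2.52) and -0.06 (-0.13 to 0.00). Markers of several other cell types moved in the same direction as Mmp9, among them those of macrophages and leukocytes. The summed level of 8 such genes was 128 and then 65.5 CPM in DPCs and 180 and then 97.8 CPM in DSCs, and Ptprc, which defines leukocytes, had between 18 and 116 counts. Most of these sums was Lyz2, with 93.2 and then 53.9 CPM in DPCs and 132 and then 78.3 CPM in DSCs. The median log2 change over the 9 rows tested for these genes was -1.59 in DPCs and -0.98 in DSCs. The 6 Schwann and glial markers summed to 12.2 and then 3.59 CPM in DPCs and to 30.7 and then 5.1 CPM in DSCs, with Sox10, Ngfr and Cdh19 at 0 in both high-passage libraries. The 5 endothelial markers summed to 2.44 and then 0.11 CPM in DPCs and to 5.56 and then 0.989 CPM in DSCs, with Cdh5 at 0 in both high-passage libraries. The part of such cells in these results was not tested, and fewer cells of a type and less RNA per cell cannot be told apart in bulk RNA. Of 9 keratinocyte markers, Krt5, Krt14, Krt15, Krt1 and Cdh1 had 0 counts in every library and Epcam at most 4. Krt10 (33 to 61 counts) and Trp63 (10 to 35) were detected in each, and Dsp, which encodes a desmosome protein, went from 10 to 184 counts in DPCs (15.7-fold) and from 84 to 2307 in DSCs (22.3-fold).

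Activators and partners of MMPs were followed as a list of 16, of which 14 were tested. In DPCs 2 were at least 4-fold higher and 1 lower, against 5.36% and 4.57% of all genes tested. In DSCs there were 0 in either direction, against 2.67% and 1.17%, and the median of the list was -0.18 in both cell types. Plat, the tissue-type plasminogen activator whose product plasmin cuts MMP zymogens, went from 3352 to 67277 counts in the DPC libraries and from 1876 to 9005 in the DSC libraries, changes of 4.33 (4.28 to 4.38) and 1.99 (1.92 to 2.06). Plau, the urokinase-type activator, went from 1647 to 203 counts in the DPC libraries and from 655 to 642 in the DSC libraries, with a change of -3.01 (-3.24 to -2.81) in DPCs. Pcsk6, a convertase of the furin family, went from 2440 to 22162 counts in the DPC libraries and from 20906 to 30650 in the DSC libraries, with a change of 3.18 (3.12 to 3.24) in DPCs. Plg, which encodes plasminogen, had 0 counts in every library. The endocytic receptor Lrp1, which clears MMP and TIMP complexes, was first in the list by mean FPKM, with 272 to 479 FPKM.

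Transcription factors known to act on MMP start regions were followed as a list of 14, all tested. None passed 4-fold with passage in either cell type, where 9.93% of all genes tested did so in DPCs and 3.84% in DSCs, and the median was 0.04 in DPCs and 0.29 in DSCs. Fos, a subunit of AP-1, came nearest, with 76 and then 303 counts in DPCs and 575 and then 1964 in DSCs, changes of 1.97 (1.63 to 2.38) and 1.50 (1.37 to 1.64). Its partner Jun changed by -0.94 in DPCs and 0.45 in DSCs. Jund was first in the list by mean FPKM, with 46.2 to 62.1 FPKM, though in high-passage DPCs Fosl2 was higher at 64.1 FPKM. Fos was higher in DSCs than in DPCs at both passages, by -2.84 and -2.37 as DPCs over DSCs. The part of these factors in the MMP levels was not tested.

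Matrix proteins that MMPs cut were followed as a list of 14, all tested. In DPCs 4 were at least 4-fold lower and 0 higher, against 4.57% and 5.36% of all genes tested, with a median of -1.44. In DSCs 1 was higher and 0 lower, against 2.67% and 1.17%, with a median of -0.03. The lower genes in DPCs were Col1a1 (-2.61), Col3a1 (-3.04), Fn1 (-2.02) and Eln (-6.77), which encode fibrillar collagens, fibronectin and elastin. Fn1 was first in the list by mean FPKM, though below Col1a2 (469 FPKM) in high-passage DPCs, with 1220 and 396 FPKM in low-passage and high-passage DPCs and 3080 and 2770 FPKM in DSCs. The gene higher in DSCs was Dcn, the collagen-binding proteoglycan decorin, with 3292 and 89544 counts and a change of 4.49 (4.44 to 4.54).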

How the data were processed

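RNA of DPCs and DSCs at passage 3 and passage 9 was sequenced, 1 library a group, and groups were taken from the sample titles. Raw counts were deposited by the authors in 1 table and, for each library, an FPKM table, which they had normalized for transcript length and depth. According to the methods, mRNA was captured on poly-T beads and read from both ends, while the labels name another kit. The submitters' processing notes name Bowtie 0.12.2 and the builds mm8 and mm9, but 94.1% of the 51633 gene IDs found in GENCODE M21 have the GRCm38 position in the deposited tables. The counting program and use of strand are not given in the sources used here. The position of Mmp14 ends at 54441265 in the deposited table and at 54445364 in GENCODE M21, and the other 9 members have the same position in both.

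Counts were scaled by TMM over all genes (edgeR 4.0.16, R 4.3.3). Genes averaging 10 or more raw counts were set against a 4-fold rule, the threshold in the study's text, on log2 CPM with a prior count of 2. Intervals (scipy 1.17.1) are Clopper-Pearson, at 95%, of a library's share of the counts of 2 libraries. No p-value was computed. Alternatives were DESeq2 1.42.0 size factors, other scalings, prior counts and filters, FPKM with a pseudocount of 0.1 and halved counts. All 10 members are named, and from the other lists the genes past 4-fold with passage and the one with the highest mean FPKM. Mmp12, Jun, Plg and the marker genes named were chosen after their values were seen, as was Fos. Motifs were read from RefSeq windows, whose 5′ to 3′ direction was checked against GENCODE transcripts. Members and lists were chosen with earlier results of these data known.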

Additional observations from a re-analysis of the deposited data

Results flagged for a closer look

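In 3 members the passage change had opposite signs in DPCs and DSCs, with counting intervals on opposite sides of 0. None of these differences was tested, because each group was 1 library. For Mmp10 the change in DPCs minus that in DSCs was -1.37 on the log2 scale, from -0.83 and 0.54, on at most 231 counts. Mmp10 shares sequence with Mmp3, and the part of Mmp3 reads in this difference was not tested. For Timp3 it was 0.90, from 0.23 and -0.67. For Mmp2 it was 0.52, from 0.21 and -0.30. Mmp13 also had opposite signs, -0.32 and 0.85, but its interval in DPCs includes 0.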

How the results depend on the processing

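The fold changes of the 10 members in the 4 comparisons were recomputed under 10 alternatives, of which TMM factors from the genes tested alone was chosen after seeing the data. Another filter on low counts, in 2 of them, cannot move a fold change, and all members passed it. Under the other 8, 255 of 320 values stayed within the counting interval of the value reported, and none crossed the 4-fold threshold. The largest shift was 0.44. The sign changed for Mmp11 between cell types at passage 9, from -0.11 to 0.02 with total counts and to 0.07 with FPKM. The share of all genes past 4-fold ran from 5.06% to 11.0% for passage in DPCs, from 1.7% to 4.48% for passage in DSCs, from 2.34% to 5.2% between cell types at passage 3 and from 3.48% to 7.11% at passage 9. The ratio of MMP to TIMP is given next for DPCs at passage 3 and 9 and then for DSCs at passage 3 and 9. It was 0.574, 1.11, 0.466 and 0.693 without Mmp14 and Timp2. With all measured MMP and TIMP genes it was 0.854, 0.749, 0.632 and 0.56. With CPM in place of FPKM it was 0.667, 0.483, 0.493 and 0.395. Without Timp1, a choice made after seeing the data, it was 1.16, 0.79, 0.823 and 0.606. The high-passage ratio was below the low-passage one in both cell types under each choice except the first, where it was above. Each group was 1 library with no replicate number to share, so that the passages pair only within a cell type. A fit of cell type plus passage over all libraries, the paired form, would leave 1 residual degree of freedom and was not run. Depth limits Mmp13 in DPCs, on 33 and 26 counts.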

Other observations

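The balance of single pairs of genes, chosen after their values were seen, moved further than that of the sums. The FPKM ratio of Mmp3 to Timp1 was 0.0101 in low-passage DPCs and 1.32 in high-passage DPCs, and 0.00201 and 0.0798 in low-passage and high-passage DSCs. Timp2 stood at 1.07 times the level of Timp1 in low-passage DPCs and 6.56 times in high-passage DPCs, and at 1.06 and 2.81 times in DSCs. The ratio of Mmp14 to Timp2, whose products meet at the cell surface, was 1.12 and 0.468 in low-passage and high-passage DPCs and 0.773 and 0.322 in DSCs. The high-passage ratio was the lower in each cell type.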
